A study of Mus musculus with 7 samples.

Results

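The intervals listed under Galnt2l, a gene model on the plus strand of mouse chromosome 8, were resolved into the genes that lie at their positions. They make up 64 of 6396 distinct intervals in the list of Srsf3 peaks from untreated cells and 78 of 8384 in the list from cells given PDGF-AA. The locus was selected on the number of its peaks and on the gene names of the peak calls, so these numbers are a description and were not tested. The 10 genes looked up by name were Galnt2l, Galnt2, Gse1, Foxc2, Map1lc3b, Banp, Zfp469, Zc3h18, Spg7 and Rpl13. Galnt2l stood on 64 and 79 rows, and the other 9 genes stood on 0 rows of both lists. In the current GENCODE annotation of GRCm39 there is no Galnt2l, and its intervals ran from upstream of Gse1 to Galnt2 over 4234058 nucleotides, a stretch with 37 protein-coding genes on the plus strand.

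The iMEPM cells used are immortalized mesenchyme of the mouse embryonic palate. They were left untreated or were given 10 ng/mL PDGF-AA for 1 hour. PDGF-AA activates PDGFRα, a receptor tyrosine kinase. Enhanced UV-crosslinking and immunoprecipitation (eCLIP) was used, in which an antibody recovers a protein together with the RNA fixed to it for sequencing. Of 7 libraries, Srsf3 was precipitated from untreated cells in 2 and from PDGF-AA cells in 1, and there were 2 inputs and 2 IgG controls. The Srsf3 library of PDGF-AA cells carries replicate number 2 in its title, and a replicate 1 was not analysed here. The authors' methods state biological duplicates, while their read counts list 2 Srsf3 libraries of untreated cells and 1 of PDGF-AA cells. Whether the PDGF-AA list rests on 1 or 2 libraries could not be settled. The authors called peaks per condition and not per library, so replicates could not be compared and no difference between conditions has a test. The lists give positions and names with no score and no read count, and the depth behind each peak is unknown.

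Srsf3 is a member of the SR protein family, which binds RNA through an RNA recognition motif and takes part in splice site choice, RNA export and translation. SR proteins bind many exonic sequences that promote inclusion of the exon, among them purine-rich ones, and CA-rich sequences are also known targets of Srsf3. A CLIP peak gives a place and a strand on the genome, and the gene it belongs to is inferred by annotation.

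The locus held 46 untreated and 56 PDGF-AA sites once intervals overlapping by at least 1 nt on the same strand were merged. Zfp469, which encodes a zinc finger protein whose human counterpart is mutated in brittle cornea syndrome, held 13 and 15 of them, more than any other gene of the locus in either list. The sequences of some of its sites are shown here because all of them lay in the coding sequence and most were called in both lists. They are GRCm39 plus-strand sequence of untreated sites, 5′ to 3′, with copies of 4 purine-rich hexamers (GAAGAA and AGAAGA, with AAGAAG and GAAGCG) in capitals. Hexamers were searched on the plus strand, and copies may overlap. The first 3 are the widest Zfp469 sites of the untreated list that overlap a PDGF-AA site, and the last is the site with most hexamers, chosen after its values were seen.
Zfp469 at chr8:122996019-122996157: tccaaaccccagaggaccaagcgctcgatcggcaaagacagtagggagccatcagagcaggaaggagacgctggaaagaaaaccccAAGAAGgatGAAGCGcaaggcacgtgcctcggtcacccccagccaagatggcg
Zfp469 at chr8:122989702-122989835: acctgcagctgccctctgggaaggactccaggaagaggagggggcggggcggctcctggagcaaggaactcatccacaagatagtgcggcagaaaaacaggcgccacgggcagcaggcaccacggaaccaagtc
Zfp469 at chr8:122994499-122994608: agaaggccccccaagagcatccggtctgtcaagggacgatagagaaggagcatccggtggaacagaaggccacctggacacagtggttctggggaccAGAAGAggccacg
Zfp469 at chr8:122989983-122990069: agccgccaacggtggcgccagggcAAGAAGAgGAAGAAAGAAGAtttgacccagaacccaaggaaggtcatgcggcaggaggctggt
The widest of these sites held 12 nt in such hexamers, the next held 0, the one after it 6 and the last 19.

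Gse1 is a component of histone deacetylase corepressor complexes. It was the only plus-strand gene of the locus with tandem CA repeats of at least 12 nt in its sites. These sites lay in introns, and the CA repeats are in capitals.
Gse1, untreated, at chr8:121099435-121099548, plus strand: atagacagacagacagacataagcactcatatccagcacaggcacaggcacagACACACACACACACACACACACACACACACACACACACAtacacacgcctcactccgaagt
Gse1, untreated, at chr8:121141748-121141827, plus strand: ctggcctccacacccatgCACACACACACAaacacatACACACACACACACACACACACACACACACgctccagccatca
Gse1, PDGF-AA, at chr8:121083656-121083681, plus strand: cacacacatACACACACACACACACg
CA repeats of this length were found in 2 of 46 untreated sites and 1 of 56 PDGF-AA sites of the locus. Over the full lists 16.8% of untreated sites and 1.20% of PDGF-AA sites held such a repeat.

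A further set of sequences belongs to plus-strand Galnt2l intervals that had an interval with the same start and end on the minus strand in the same list. Both came from the PDGF-AA list and were chosen after their values were seen. They are printed as the plus strand reads, and capitals mark the reverse complements of the purine-rich hexamers, that is, hexamers carried by the minus-strand gene.
Opposite a coding exon of Klhdc4 at chr8:122556122-122556199, plus strand: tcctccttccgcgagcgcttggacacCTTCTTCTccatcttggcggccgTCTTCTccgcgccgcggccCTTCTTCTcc
Opposite a coding exon of Piezo1 at chr8:123216979-123217042, plus strand: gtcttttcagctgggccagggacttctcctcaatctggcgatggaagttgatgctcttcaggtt
The Klhdc4 sequence held 22 nt in such hexamers and the Piezo1 sequence held 0.

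By position and strand, 57 of 64 untreated intervals (89.1%, Wilson 95% interval 79.1 to 94.6%) and 69 of 78 PDGF-AA intervals (88.5%, 79.5 to 93.8%) fell in an annotated plus-strand gene. These Wilson intervals cover the counting of peaks only. The intervals were spread over 14 untreated and 13 PDGF-AA genes, and 18 protein-coding genes had a site in either list. Of these 18 genes 9 were looked up by name and 9 were not. The remaining 19 protein-coding genes of the plus strand in the stretch had no site in either list.

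**Figure D1:**
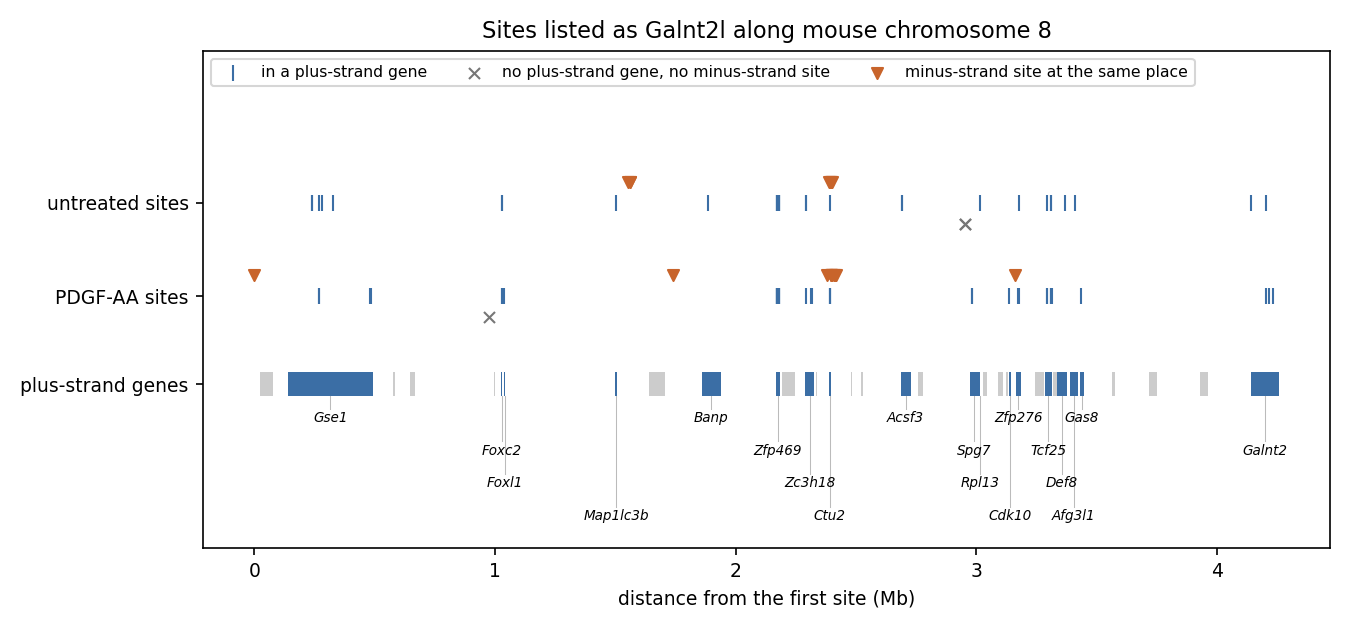
Position of every site listed under Galnt2l, as distance in Mb from the first site, for the untreated and PDGF-AA lists, above the plus-strand protein-coding genes of the stretch (blue with a site in either list, grey with none). Vertical bars stand for sites in a plus-strand gene, triangles for sites with a minus-strand site at the same place (8 untreated, 12 PDGF-AA) and crosses for the others without a plus-strand gene.

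Each peak also carries a name from the peak caller that holds a gene identifier. That identifier was Galnt2l for 28 of 64 untreated intervals (43.8%, 32.3 to 55.9%) and 42 of 78 PDGF-AA intervals (53.8%, 42.9 to 64.5%). The other 36 untreated intervals were named for another gene, and all 36 lay in that gene by position. In the PDGF-AA list all 37 intervals with another gene's name likewise lay in that gene. A Foxc2 interval of the PDGF-AA list occurred on a row of each name with the same coordinates, which is why 79 rows gave 78 distinct intervals.

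Many sites had been called under both names. In the untreated list 18 of 46 sites held an interval named Galnt2l and an interval named for the gene at that position, 10 were called as Galnt2l only and 18 under their own gene only. In the PDGF-AA list these numbers were 22, 20 and 14 of 56 sites. Accordingly, 36 of 64 untreated intervals (56.2%, 44.1 to 67.7%) and 43 of 78 PDGF-AA intervals (55.1%, 44.1 to 65.7%) overlapped another distinct interval of the same list and strand. Over all intervals of the full lists, 2.30% (untreated) and 2.74% (PDGF-AA) did so. The number of intervals per site was 1.39 in both lists.

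**Figure D2:**
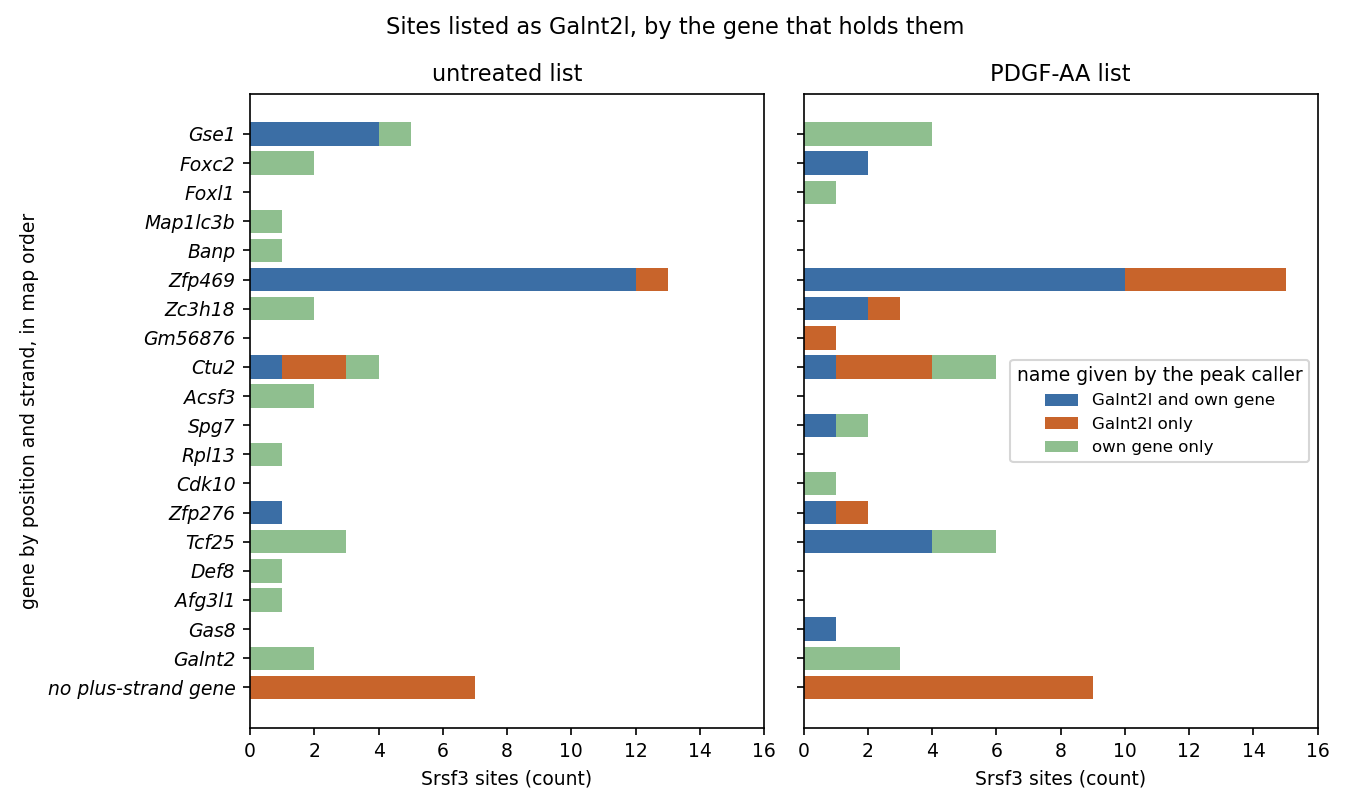
Number of Srsf3 sites (horizontal axis) per gene by position and strand (vertical axis, in map order) for the untreated list (left) and the PDGF-AA list (right). Colours give the gene names in the peak calls of a site. Zfp469 leads both lists with 13 and 15 sites, and the 7 and 9 sites without a plus-strand gene were called as Galnt2l only.

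Zfp469 accounted for 33.3% of the 39 untreated sites placed in a gene and 31.9% of the 47 PDGF-AA sites placed in a gene. By the number of sites it ranked 7th of 3570 protein-coding genes with a site in the untreated list, with 3 others at that number. In the PDGF-AA list it ranked 7th of 4469, with 1 other. The locus was selected on its number of peaks, and Zfp469 was called under both names. These ranks are therefore a description and no like-for-like comparison with genes called under their own name alone. All its sites lay in its single coding exon, which is the last of 2 exons and is 11295 nt of coding sequence long. They covered 1258 nt (11.1%) of it in the untreated list and 1676 nt (14.8%) in the PDGF-AA list. This gave 1.15 untreated and 1.33 PDGF-AA sites per kb of coding sequence. The order of the lists depended on the name in the call. Intervals named Galnt2l numbered 13 untreated and 15 PDGF-AA, while those named Zfp469 went the other way, with 12 and 10.

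The Zfp469 sites reached from coding nucleotide 147 to 11030 in the untreated list and from 92 to 11080 in the PDGF-AA list. Neighbouring sites were 9 to 1990 nt apart without ligand and 3 to 1377 nt apart after PDGF-AA. Each of the 13 untreated sites overlapped a PDGF-AA site, and 12 of the 15 PDGF-AA sites overlapped an untreated site. The sites of both lists had 1143 nt in common, which was 90.9% of the untreated and 68.2% of the PDGF-AA covered length. The 3 PDGF-AA sites with no untreated counterpart began at coding nucleotides 330, 2320 and 5797, and each had been called as Galnt2l only.

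**Figure D3:**
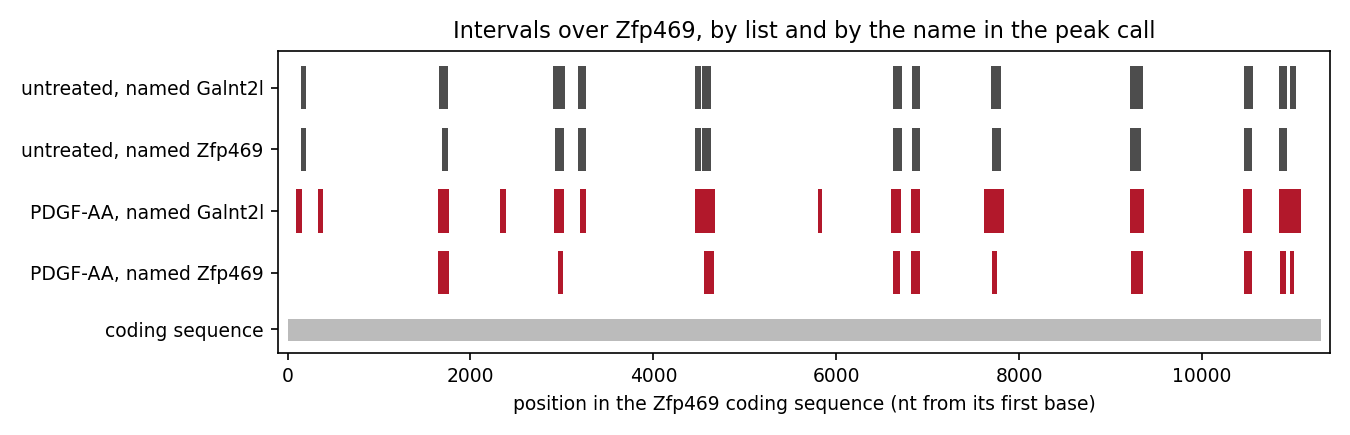
Intervals over Zfp469 by position in its coding sequence (nt from its first base), in 4 rows by list and by the gene named in the peak call, above the coding sequence in grey. The 13 untreated and 15 PDGF-AA Galnt2l intervals run from coding nucleotide 147 to 11030 and from 92 to 11080, and the 12 and 10 intervals named Zfp469 lie at the same places.

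Zfp469 sites, merged over the calls of both names, were wide. Their median width was 97.0 nt in the untreated list (58 to 139 nt) and 101 nt in the PDGF-AA list (47 to 225 nt), against a median of 48.0 and 49.0 nt over all sites of the full lists. At sites called under both names, intervals named Zfp469 had a median width of 86.0 nt in the untreated list and 81.0 nt in the PDGF-AA list. At least 1 of the 4 purine-rich hexamers was present in 7 of 13 untreated Zfp469 sites and 7 of 15 PDGF-AA sites. Over the full lists 18.9% of untreated and 34.3% of PDGF-AA sites held such a hexamer. Over the whole locus the numbers were 10 of 46 (21.7%) and 18 of 56 (32.1%). A wider site has more places for a hexamer, and these shares were not adjusted for width. The Zfp469 sites had a GC content of 58.9% without ligand and 59.0% after PDGF-AA, with 59.5% for the whole coding sequence.

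The width of the same site depended on the name under which it was called. At Zfp469 the interval named Galnt2l was wider than the interval named Zfp469 at 12 of 12 untreated and 10 of 10 PDGF-AA sites called under both names, and the Zfp469 interval lay inside it each time. Median widths were 97.5 nt as Galnt2l and 86.0 nt as Zfp469 in the untreated list, with a median difference of 9.50 nt and a largest of 36 nt. In the PDGF-AA list they were 116 and 81.0 nt, with a median difference of 27.0 nt and a largest of 157 nt. At the other genes the order was different. The Galnt2l interval was wider at 0 of 6 untreated sites, and at 5 of 12 PDGF-AA sites, where 6 were narrower and 1 was equal. Gse1 was wider under its own name at 4 of 4 untreated sites and Tcf25 at 4 of 4 PDGF-AA sites. Why the calls differ was not tested.

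**Figure D4:**
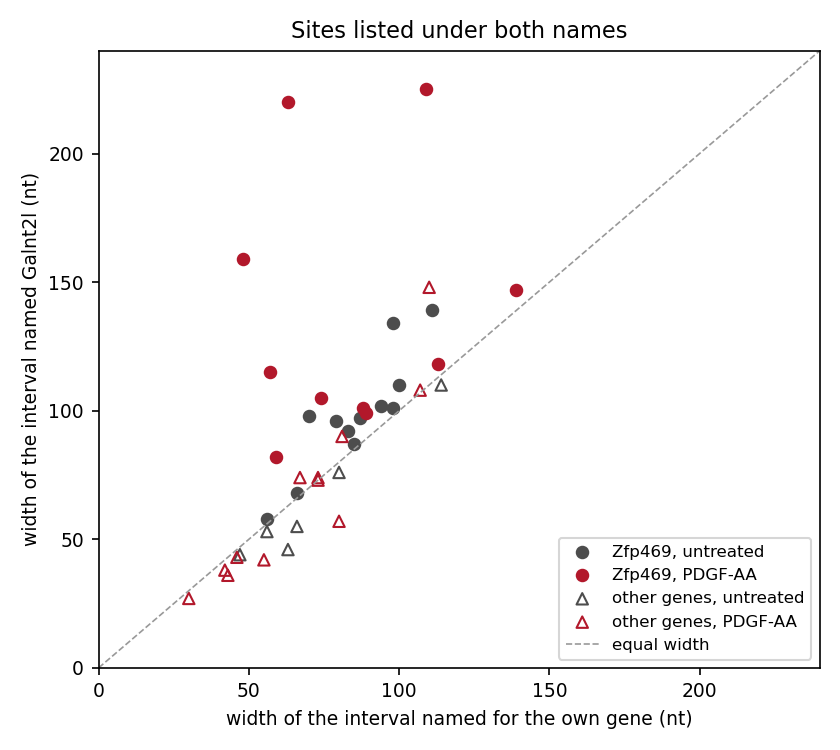
Width in nt of the interval named Galnt2l (vertical axis) against the width of the interval named for the gene at that position (horizontal axis), for 18 untreated and 22 PDGF-AA sites called under both names. Filled circles are Zfp469 sites, all above the dashed line of equal width, and open triangles are sites of other genes, which lie on both sides of it.

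Gse1 had 5 untreated and 4 PDGF-AA sites, and no site of it was in both lists. All 5 untreated sites lay in introns, at widths of 33 to 114 nt, and included both untreated CA repeat sites printed above. After PDGF-AA 2 sites were intronic and 2 were in coding sequence, a 76-nt site in exon 9 and a 127-nt site in exon 11 of 16. The hexamer CACACA occurred 17 and 16 times in the 2 untreated repeat sites and 7 times in the PDGF-AA repeat site. The 2 intronic PDGF-AA sites were 26 and 15 nt wide and lay next to each other, and the longest CA runs in them were 16 and 7 nt. Of the untreated sites 4 of 5 were called under both names, and all 4 PDGF-AA sites were called as Gse1 only.

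Foxc2, a forkhead transcription factor of mesenchymal tissues encoded by a single exon, had 2 sites in each list, and each overlapped its counterpart. The coding site was 41 nt wide in the untreated list and 73 nt in the PDGF-AA list, where it had the same coordinates under both names. It is shown for its AAGAAG run, with the purine-rich hexamers in capitals, and was chosen after its values were seen.
Foxc2, PDGF-AA, at chr8:121843830-121843902, plus strand: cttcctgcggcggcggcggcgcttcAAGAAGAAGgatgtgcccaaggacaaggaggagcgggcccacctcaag
The 3′ UTR site was 44 nt wide without ligand and 74 nt after PDGF-AA. Both untreated sites were called as Foxc2 only and both PDGF-AA sites under both names. The neighbouring Foxl1, another forkhead gene, had 0 untreated sites and 1 PDGF-AA coding site of 23 nt.

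Zc3h18, which links the nuclear cap-binding complex with the RNA exosome, had 2 untreated and 3 PDGF-AA sites, all coding. In exon 2 of 18 the untreated list held neighbouring sites of 24 and 32 nt, and the PDGF-AA list held a 90-nt site over both of them. The other PDGF-AA sites were 148 nt wide in exon 8 and 76 nt wide in exon 9. They lay at coding nucleotides 1317 to 1463 and 1465 to 1540, on both sides of an exon junction. Tcf25, a subunit of the ribosome quality control complex, had 3 untreated and 6 PDGF-AA sites. Its sites in exons 15 and 16 of 18 were found in both lists, and PDGF-AA sites in exons 3, 4 and 17 and in the 3′ UTR had no untreated counterpart. Its untreated site in exon 2 had no PDGF-AA counterpart. The PDGF-AA sites of exons 3 and 4 lay at coding nucleotides 376 to 429 and 431 to 485. Those of exons 15, 16 and 17 lay at 1680 to 1719, 1721 to 1799 and 1801 to 1830. Merging used genome positions, so sites that meet across an exon junction of the spliced RNA were counted apart.

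Galnt2, the enzyme of O-linked glycosylation after which the Galnt2l model is named, had 2 untreated and 3 PDGF-AA sites at the far end of the stretch. An untreated 54-nt site and a PDGF-AA 71-nt site overlapped in coding exon 2 of 16. The other untreated site lay in an intron, and the other PDGF-AA sites lay in exons 3 and 5. No Galnt2 site was named Galnt2l by the peak caller in either list, although every row listed it as Galnt2l.

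Protein-coding genes with sites without ligand but not after PDGF-AA numbered 6, and each had 1 or 2 sites. They were Map1lc3b, which encodes the autophagosome protein LC3B, the nuclear matrix protein gene Banp, the mitochondrial malonyl-CoA synthetase gene Acsf3, the ribosomal protein gene Rpl13, Def8 and the mitochondrial protease subunit gene Afg3l1. The Banp site lay in the 5′ UTR and the sites of the other 5 genes in coding sequence, and the widths ran from 16 nt in Afg3l1 to 35 nt in Map1lc3b. Protein-coding genes with a site in the PDGF-AA list alone numbered 4, beside the lncRNA Gm56876. They were Foxl1, the mitochondrial protease subunit gene Spg7, with sites in exons 3 and 4 of 17, the cyclin-dependent kinase gene Cdk10 and the dynein regulatory complex gene Gas8, with a 108-nt site. The Spg7 sites lay at coding nucleotides 346 to 376 and 378 to 423, on both sides of an exon junction. The remaining 8 protein-coding genes had sites in both lists. The share of genes with sites in 1 list alone over the full lists is not given here. These gene numbers therefore only describe the locus. The deposited lists of peaks unique to a condition held 0 rows of the locus, since Galnt2l stands in both full lists.

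Sites with a counterpart in the other list numbered 23 of 46 without ligand (50.0%, 36.1 to 63.9%) and 21 of 56 after PDGF-AA (37.5%, 26 to 50.6%). Over the full lists 38.7% of untreated and 29.4% of PDGF-AA sites overlapped a site of the other list. Outside Zfp469 the numbers were 10 of 33 (30.3%, 17.4 to 47.3%) and 9 of 41 (22.0%, 12 to 36.7%). The full-list shares lie inside the intervals of the whole locus and inside those outside Zfp469.

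Coding sequence held 26 of 39 untreated sites in protein-coding genes (66.7%, 51.0 to 79.4%) and 36 of 46 PDGF-AA sites (78.3%, 64.4 to 87.7%). Over the full lists the share was 54.8% and 82.8%. Without Zfp469 it was 13 of 26 sites in the untreated list (50.0%) and 21 of 31 in the PDGF-AA list (67.7%). Introns held 6 untreated and 2 PDGF-AA sites, 5′ UTRs 2 and 0, and 3′ UTRs 5 and 8. Regions were taken over all annotated transcripts, and with any contact to a UTR taken first the coding share became 48.7% and 45.7%. A Zfp276 site found in both lists shows this, since it fell in the 3′ UTR class in the untreated list and in coding sequence in the PDGF-AA list.

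A further group of sites lay opposite genes of the minus strand. Of the Galnt2l intervals, 9 of 64 untreated (14.1%, 7.58 to 24.6%) and 12 of 78 PDGF-AA intervals (15.4%, 9.03 to 25.0%) overlapped an interval of the same list on the other strand. Over all intervals of the full lists, 3.41% (untreated) and 4.08% (PDGF-AA) did so. They formed 8 untreated and 12 PDGF-AA sites, of which 7 and 12 were called as Galnt2l only. Of the sites with no plus-strand gene, 5 of 7 untreated and 8 of 9 PDGF-AA sites were of this kind.

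Most of these sites faced coding exons, 5 of 8 without ligand and 11 of 12 after PDGF-AA. The gene opposite was Piezo1, which encodes a mechanosensitive ion channel, for 4 untreated and 8 PDGF-AA sites. Piezo1 had 8 minus-strand sites in each list, and 4 of the untreated and all 8 of the PDGF-AA sites had a plus-strand Galnt2l site opposite. Both ends lay within 3 nt of those on the minus strand in 4 of 8 untreated and 6 of 13 PDGF-AA pairs of sites, and were identical in 0 and 5 pairs. The other genes opposite were Zcchc14, with 3 intronic sites in the untreated list, Rnf166 in both lists, and Zdhhc7, Klhdc4 and Vps9d1 in the PDGF-AA list. A purine-rich hexamer stood on the plus strand of 0 of the 12 PDGF-AA sites and on the minus strand of 4. The untreated sites had 0 of 8 on either strand. The untreated site at chr8:122368595-122368729, opposite a Zcchc14 intron, held a TG run of 19 nt, which is a CA repeat on the minus strand. In the 43 PDGF-AA sites in plus-strand genes without a minus-strand site, 18 had such a hexamer on the plus strand and 4 on the minus strand. Whether these plus-strand calls are bound plus-strand RNA or reads of the minus-strand genes cannot be told apart from the lists.

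**Figure D5:**
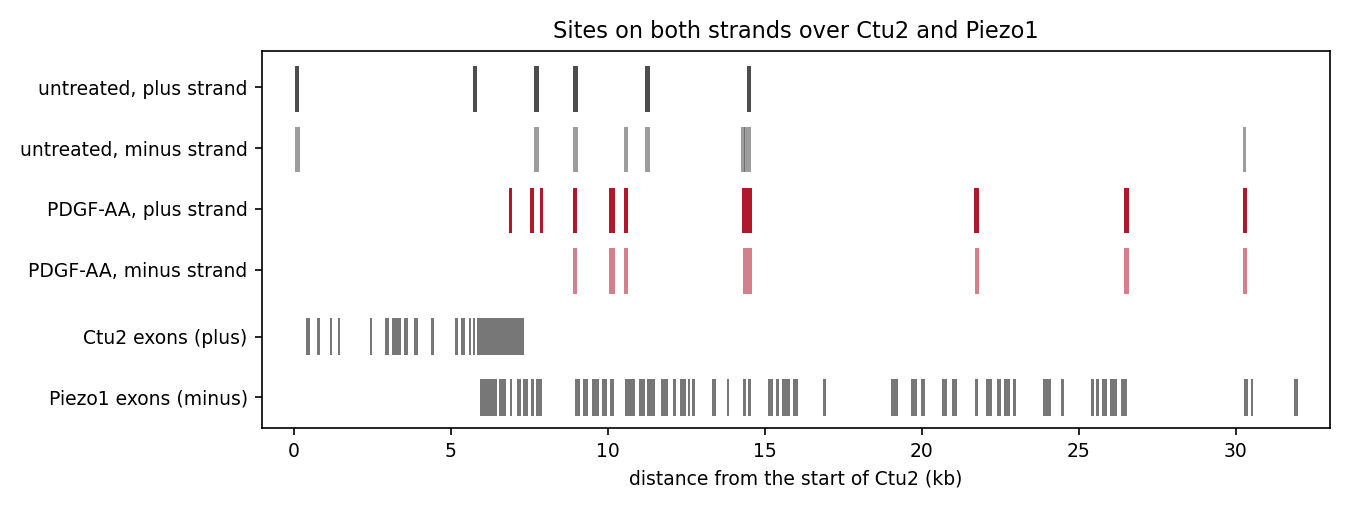
Sites on the plus and minus strand over Ctu2 and the 3′ part of Piezo1, as distance in kb from the start of Ctu2. The untreated list is grey and the PDGF-AA list red, with exons of both genes below. Site marks were widened slightly to be visible. Each of the 8 PDGF-AA Piezo1 sites on the minus strand has a plus-strand site at the same place, as do 4 of 8 untreated sites.

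Ctu2, which takes part in tRNA thiolation and whose end overlaps Piezo1 on the other strand, received 4 untreated and 6 PDGF-AA sites. Of these 3 in each list had a minus-strand site opposite, leaving 1 and 3 without them. The 3 PDGF-AA sites left also lay opposite coding exons of Piezo1, and the 1 untreated site left faced no minus-strand gene. In the untreated list 1 Ctu2 site lay in the 5′ UTR and 3 in the 3′ UTR, and all 6 PDGF-AA sites lay in the 3′ UTR. Of the untreated 3′ UTR sites 1 also overlapped coding sequence in exon 14 of 15 of the Ctu2 transcript with the longest coding sequence. Most 3′ UTR sites of both lists lay outside the exons of that transcript and were placed in Ctu2 through other annotated transcripts. The outermost PDGF-AA site had only 4 of its 47 nt inside Ctu2. A lncRNA, Gm56876, received 1 PDGF-AA site, which faced a coding exon of Rnf166. The 3 sites with no plus-strand gene and no minus-strand site lay opposite an intron of Ankrd11, in the untreated list, and an exon of Fendrr, in the PDGF-AA list.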

How the data were processed

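The labels describe eCLIP libraries of iMEPM cells without ligand or with PDGF-AA, and groups were taken from the sample titles. Per the methods, the authors trimmed reads with cutadapt, collapsed them on molecular identifiers, removed repetitive elements, aligned with STAR, used omniCLIP for peak calls and RCAS for annotation. Versions in the submitters' notes are 1.18 for cutadapt and 2.7.9 for STAR, and both GRCm38 and GRCm39 are named there. The deposited lists give each peak's interval, listed gene and peak name, and no other measured value (no score, height or read count). Input and IgG libraries were not analysed. Listed gene names spread peaks over the Galnt2l model, so names and positions were compared.

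Rows listed as any of the 10 genes were reduced to distinct intervals, printed as deposited. Each interval was placed, with Python 3.11.15, numpy 2.4.6 and scipy 1.17.1, in the GENCODE M39 gene of its strand with most exonic nucleotides, protein-coding genes first, otherwise in the shortest gene. The annotation the authors used, M26 in their methods, was not used here. In the locus 25 interval edges lay 1 nt after an exon edge and 0 on it, so an alternative moved intervals back by 1 nt. Overlap needed 1 nt on the strand. A CA repeat needed 12 nt. Shares carry Wilson 95% intervals. The merging and overlap steps were tested on simulated data with known answers. The placement of intervals in genes was not tested in this way. Another 2 PDGF-AA intervals named Galnt2l by the peak caller are listed as Usp10, lie in Usp10 and were left out.

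The genes named were the 10 looked up that had or received an interval and every other gene that received a Galnt2l interval. Sequences shown were the widest Zfp469 sites in both lists and sites with a CA repeat, and others are named in the text as chosen after their values were seen. Members and lists were chosen with earlier results of these data known. Alternatives varied the counting unit, gene assignment, merging, overlap, region rule, CA repeats and interval position, and sites with a minus-strand counterpart were left out as an alternative chosen after seeing the data.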

Additional observations from a re-analysis of the deposited data

How the results depend on the processing

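Of 100 values recomputed under alternatives, 82 stayed within a limit and 18 did not. The limit was 1.5 times the reported value for counts and the Wilson 95% interval for shares. With genes taken from the peak caller's names, Zfp469 had 12 untreated and 10 PDGF-AA intervals in place of 25 and 25, since the Galnt2l calls are then counted apart. Without merging, Zfp469 had 25 and 25 sites in place of 13 and 15, since sites called under both names then count more than once, and the locus had 64 and 78 in place of 46 and 56, within the limit. With any contact to a UTR taken first, the coding share was 48.7% and 45.7% in place of 66.7% and 78.3%, by construction of the rule. Without CA repeat sites Gse1 had 3 untreated sites in place of 5, and without sites that have a minus-strand counterpart, an alternative chosen after seeing the data, Ctu2 had 1 and 3 in place of 4 and 6. The other 9 changes were in the interval or site numbers of Gse1, Ctu2, Zc3h18 and Tcf25. The authors' methods give more mapped reads for the PDGF-AA Srsf3 library than for either untreated one, and far fewer for the inputs. The peak lists carry no read counts, so what depth limits is unknown. No paired analysis was possible because peaks were called once per condition and the columns carry no replicate numbers, and leaving out a replicate was not possible for the same reason.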
